A study of Mus musculus with 4 samples.

Results

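Carboxylesterase genes of the mouse were followed across 4 poly(A) RNA libraries of cultured colon tumour cells. The 9 genes are Ces1d, Ces1e, Ces1f and Ces1g of the Ces1 family and Ces2a, Ces2c, Ces2e, Ces2f and Ces2g of the Ces2 family, out of 41457 rows of the count table, and they were found by their symbol. Ces2g and Ces1f were put in the set because earlier results of the same counts had shown them higher in mutant lines, so their differences from control are given as descriptions without a test. The tumour cells were grown in RPMI medium, and the tissue of origin is given as colon. The mutant libraries M8, M32 and M83 come from 1 line each and carry the genotype label ENU mutant, for cells mutagenised with N-ethyl-N-nitrosourea (ENU), an alkylating mutagen known mainly for single base changes, and the fourth library is the control. The mutated genes, the name of the cell line and whether the lines and the control shared a parent culture are not stated in the sources at hand, so a line's difference from control and a difference between cultures cannot be told apart.

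Carboxylesterases are serine hydrolases that mostly reside in the lumen of the endoplasmic reticulum, where they split ester, thioester and amide bonds. They are best known from liver and small intestine, where they activate or clear ester drugs and hydrolyse acylglycerols and cholesteryl esters. In rodents the genes have multiplied in tandem arrays, so the mouse has several counterparts of each human gene. Ces1d encodes a triacylglycerol hydrolase of liver and fat. Ces1e encodes egasyn, which holds β-glucuronidase in the endoplasmic reticulum. Ces1g encodes a liver esterase with effects on hepatic lipid stores, and Ces2c an acylglycerol hydrolase of liver and gut.

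All 9 genes lie on chromosome 8 of GRCm38 and are protein-coding. The Ces1 genes are on the minus strand, with Ces1f at chr8:93256236-93279747 and Ces1g at chr8:93302369-93337308. The Ces2 genes are on the plus strand about 11397 kb further along. There Ces2e (chr8:104926260-104934672), Ces2f (chr8:104947356-104960047) and Ces2g (chr8:104961718-104969537) follow each other head to tail, with gaps of 12.7 kb and 1.67 kb. A RefSeq start region, 250 bases before to 50 after the start of the gene in GRCm38.p6, was matched for 7 of the 9 genes. Those of Ces1g and of the adjacent genes Ces2e, Ces2f and Ces2g are printed 5′ to 3′ on the strand of the gene, because these 4 genes were above control in each mutant line. Their positions are chr8:93337160-93337459, chr8:104926010-104926309, chr8:104947106-104947405 and chr8:104961468-104961767. Capitals mark runs of at least 9 bases that 1 of the 3 Ces2 regions shares with another of them.
Ces1g: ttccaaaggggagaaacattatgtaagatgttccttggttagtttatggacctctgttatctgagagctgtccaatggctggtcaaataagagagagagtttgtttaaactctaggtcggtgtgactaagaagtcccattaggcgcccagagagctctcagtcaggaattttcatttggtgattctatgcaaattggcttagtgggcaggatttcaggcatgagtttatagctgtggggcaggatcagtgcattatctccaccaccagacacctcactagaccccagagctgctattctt
Ces2e: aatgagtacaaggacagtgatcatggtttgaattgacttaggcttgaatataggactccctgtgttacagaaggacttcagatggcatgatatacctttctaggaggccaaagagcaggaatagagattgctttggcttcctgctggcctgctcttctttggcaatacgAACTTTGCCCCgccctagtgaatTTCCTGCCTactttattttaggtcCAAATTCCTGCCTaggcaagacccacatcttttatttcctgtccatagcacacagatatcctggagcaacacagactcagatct
Ces2f: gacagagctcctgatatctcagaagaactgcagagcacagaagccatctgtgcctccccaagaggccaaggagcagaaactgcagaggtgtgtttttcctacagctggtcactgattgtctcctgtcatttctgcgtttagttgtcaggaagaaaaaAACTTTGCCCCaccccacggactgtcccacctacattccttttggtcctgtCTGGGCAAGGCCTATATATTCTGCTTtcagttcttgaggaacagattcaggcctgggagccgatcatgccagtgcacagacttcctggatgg
Ces2g: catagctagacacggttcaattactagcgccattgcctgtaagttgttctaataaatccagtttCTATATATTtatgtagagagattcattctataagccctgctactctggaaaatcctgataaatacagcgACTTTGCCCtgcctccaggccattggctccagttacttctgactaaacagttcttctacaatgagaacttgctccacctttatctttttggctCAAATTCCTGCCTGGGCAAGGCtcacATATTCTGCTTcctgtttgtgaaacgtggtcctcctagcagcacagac

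The 3 Ces2 regions had 1 run of 9 bases in common, ACTTTGCCC, which begins at position -80 from the start site in Ces2e, -92 in Ces2f and -117 in Ces2g. It occurs, on either strand, in 0.252% of the 27025 start regions of mouse genes in the same table, and the Ces1g region does not hold it. Ces2e and Ces2g also shared the 13 bases CAAATTCCTGCCT, present in 0.0111% of start regions, and Ces2f and Ces2g the 11 bases CTGGGCAAGGC, present in 0.0481%. Of 7 short motifs searched on both strands, CCAAT was found for Ces1g and Ces2g (37.9% of all start regions), TATAAA for Ces1g (14.2%) and GGGCGG for Ces2e (35.9%). The others, AGGTCA (16.04% of all start regions), TGACNNNGC (12.5%), GCGTG (32.5%) and CACGTG (7.24%), were not in these windows. Each motif was searched on its own, so matches of different motifs could overlap.

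M8, M32 and M83 held 28879954, 27312207 and 28011773 counts and control 25818148, each in 1 column, so single libraries have no replicate check. Values in CPM are counts scaled to a common library size with the TMM factors of edgeR. The limit that a count of 0 sets, taken as about 3 counts, equals 0.105 CPM in M8, 0.111 CPM in M32, 0.104 CPM in M83 and 0.118 CPM in control. Intervals and floors cover counting error only. The labelled tissue was checked against markers of colonic epithelium, and Epcam, Cdx2, Car1 and Muc2 had no count in any library, while the 8 listed genes summed to 0.457, 0.701 and 1.14 CPM in M8, M32 and M83 and to 1.25 CPM in control. Markers of the cell types in which carboxylesterases are best known were scarce as well. The 8 enterocyte genes summed to 0.111 to 0.277 CPM in the lines and 0.235 CPM in control, the 8 hepatocyte genes to 0.885 to 1.42 CPM in the lines and 0.941 CPM in control, and the 7 adipocyte genes to 1.25 to 2.18 CPM in the lines and 0.862 CPM in control. Alb had at most 2 counts, and Apoa2, Fabp1, Cidec and Cfd had none. In bulk libraries like these, fewer cells with a transcript and less of it per cell cannot be told apart.

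Only 3 of the 9 genes reached 50 counts in a library, namely Ces1g, Ces2g and Ces1f. Ces2e and Ces2f were at the edge of detection with at most 29 counts, and Ces1d, Ces1e, Ces2a and Ces2c had at most 2 counts anywhere. Per kb of exon, Ces1g stood highest in every library, at 16.7, 24.1 and 11.01 CPM per kb in M8, M32 and M83 and at 8.72 CPM per kb in control. Ces2g came next in M8, M32 and control, with levels of 4.42, 7.94 and 7.14 CPM per kb in M8, M32 and M83 and 1.25 CPM per kb in control. In M83 Ces1f, at 9.70 CPM per kb, stood above Ces2g. Summed over the 9 genes, carboxylesterase counts came to 60.5, 88.2 and 84.6 CPM in M8, M32 and M83, against 26.7 CPM in control.

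**Figure D1:**
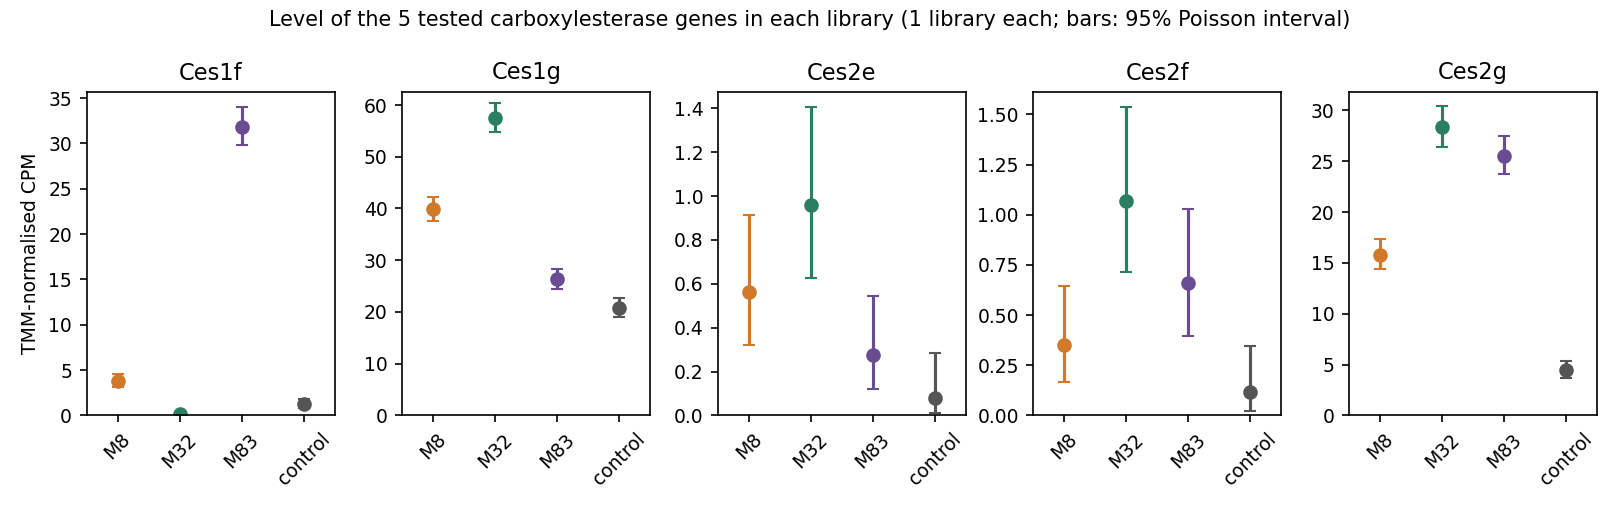
TMM-normalised CPM (y axis, linear, 1 scale per gene) of Ces1f, Ces1g, Ces2e, Ces2f and Ces2g in M8, M32, M83 and control (x axis), 1 library each, with 95% Poisson intervals for counting error. Ces1g, Ces2e, Ces2f and Ces2g have their lowest point in control, while Ces1f ranges from 0.147 CPM in M32 to 31.9 CPM in M83.

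Ces1g, the highest carboxylesterase transcript per kb in every library, was higher in each mutant line than in control. It had 1136 counts in M8, 1560 in M32 and 760 in M83, against 531 in control, or 39.9, 57.5 and 26.3 CPM against 20.8 CPM. M32 was highest, and M83 lay close above control. The ratio to control was 1.92 in M8 (95% exact interval 1.73 to 2.13), 2.76 in M32 (2.503 to 3.06) and 1.26 in M83 (1.13 to 1.41), so counting error alone leaves each of them above control. Across the lines the mean was 41.2 ± 15.7 CPM (SD, n = 3), and edgeR's quasi-likelihood test of the 3 lines against the lone control gave a log2 difference of 0.99 (SE 0.446) that did not pass (adjusted p = 0.9998 over all genes). The lines differed among themselves as well, with M83 at 0.457 of M32 (interval 0.418 to 0.499) and M32 at 1.44 times M8 (1.33 to 1.56).

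Ces2g was the carboxylesterase gene with the most even elevation over the lines. It had 450 counts in M8, 770 in M32 and 738 in M83, against 114 in control, or 15.8, 28.4 and 25.5 CPM against 4.47 CPM. All mutant libraries were well above control, and M32 and M83 were close to each other. The ratio to control was 3.54 in M8 (interval 2.87 to 4.38), 6.35 in M32 (5.21 to 7.81) and 5.71 in M83 (4.68 to 7.02), while M83 over M32 was 0.899 (0.812 to 0.996). The lines averaged 23.2 ± 6.60 CPM (SD, n = 3), and the log2 difference was 2.38 (SE 0.441). Since this gene was picked for that difference, its p is not given as a test. The number of Ces2g counts per Ces1g count, which does not depend on library scaling, was 0.396 in M8 (interval 0.354 to 0.442), 0.494 in M32 (0.452 to 0.538) and 0.971 in M83 (0.876 to 1.08), against 0.215 in control (0.174 to 0.263). These ratios use the counts on which Ces2g was picked and are a description of single libraries.

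Ces1f, a Ces1 family gene, had the widest range between lines of the 5 tested carboxylesterase genes. It had 107 counts in M8, 4 in M32 and 921 in M83, against 32 in control, or 3.76, 0.147 and 31.9 CPM against 1.25 CPM. It was thus higher than control in M8 and M83 and lower in M32, although it had been chosen for a rise in mutant lines. The ratio to control was 3.00 in M8 (interval 2.00 to 4.60), 0.118 in M32 (0.0302 to 0.332) and 25.4 in M83 (17.9 to 37.4). Among the 13576 tested genes the log2 ratio of Ces1f was the 11th highest in M83 over control. Because Ces1f was picked on these same counts, its ratios and ranks are a description and no support. Between lines, M83 over M32 was 216-fold (interval 84.1 to 794), the highest log2 ratio of all tested genes in that pair. The mean over the lines, 11.9 ± 17.4 CPM (SD, n = 3), therefore describes none of them. Its log2 difference of 3.24 (SE 2.36) rested on M83, since without that line it was 0.61 (SE 1.53). Ces1g, which lies 22.6 kb from Ces1f on the same strand, had the opposite order in M32 and M83. Per Ces1g count there were 0.0942 Ces1f counts in M8, 0.00256 in M32 and 1.21 in M83, against 0.0603 in control.

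**Figure D2:**
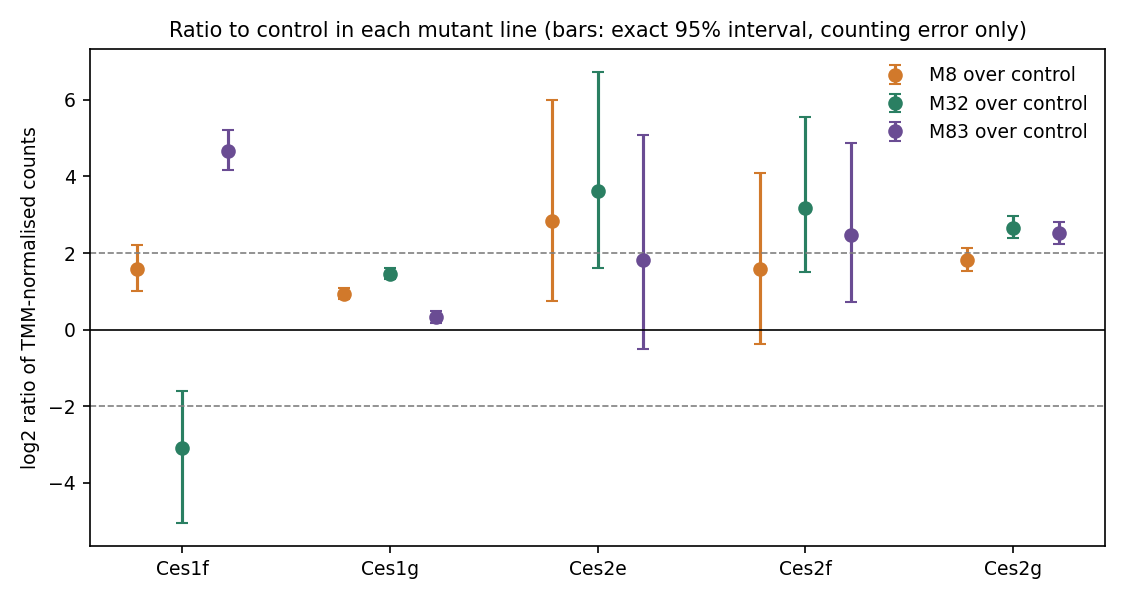
Log2 ratio of TMM-normalised counts of each mutant line over control (y axis) for the 5 tested carboxylesterase genes (x axis), with exact 95% intervals for counting error and dashed lines at 4-fold. Ces2g lies above 0 in every line with narrow intervals, Ces1f lies on both sides of 0, and the intervals of Ces2e and Ces2f are wide because control held 2 and 3 counts.

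Ces2e and Ces2f, the genes just before Ces2g, were low in every library and lowest in control. Both passed the filter on low counts only through the mutant libraries, so their place above control is a description and no support. Ces2e had 16 counts in M8, 26 in M32 and 8 in M83, against 2 in control. The ratio to control was 7.17 in M8 (interval 1.69 to 64.3), 12.2 in M32 (3.06 to 106) and 3.53 in M83 (0.704 to 34.1). Ces2f had 10 counts in M8, 29 in M32 and 19 in M83, against 3 in control. Its ratio to control was 2.99 in M8 (0.769 to 16.9), 9.09 in M32 (2.82 to 46.7) and 5.59 in M83 (1.65 to 29.5). Between lines, the counting intervals of 2 ratios left out 1, that of Ces2e in M83 over M32, at 0.289 (0.113 to 0.656), and that of Ces2f in M32 over M8, at 3.04 (1.44 to 7.002). Neither passed edgeR's quasi-likelihood test, with log2 differences of 2.86 (SE 1.36) for Ces2e and 2.51 (SE 1.22) for Ces2f (adjusted p = 0.9998 for each over all genes).

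Ces2e and Ces2f share sequence with Ces2g, and how reads with several matches were counted is not stated in the sources at hand. Of the 50-base words in the transcripts of Ces2f, 1.44% also occur in Ces2g, and of those of Ces2e, 1.34%. Ces2f counts were 2.22% of Ces2g counts in M8 (interval 1.06 to 4.12), 3.77% in M32 (2.51 to 5.45) and 2.57% in M83 (1.54 to 4.05), against 2.63% in control (0.535 to 7.89), a nearly even share. Ces2e counts were 3.56% of Ces2g counts in M8, 3.38% in M32 and 1.08% in M83, against 1.75% in control. The part of shared sequence in these counts was not tested. Over all other genes, the shared part of the words was 0.903% for Ces1f, 1.67% for Ces1g, 2.4% for Ces2f, 3.12% for Ces2g and 3.3% for Ces2e.

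The remaining 4 genes had almost no reads. Ces2a had no count in any library, so its level was under 0.118 CPM in control at most. Ces1d and Ces1e had 2 counts each in M32 and none in M8, M83 and control, and Ces2c had 2 counts in M8 and none elsewhere. All of these are at or under the floor of 3 counts, so no fold is given. Ces2c is also the member with the most shared sequence, as 36.1% of its words occur in other genes, mostly in the pseudogene Ces2d-ps. The table lists 10 further genes of the family, of which 6 had no count, including Ces2b, Ces2h, Ces3a and Ces4a. Ces1a, with 4, 11 and 7 counts in M8, M32 and M83 and 2 in control, was the only one of the 10 to pass the filter on low counts, and Ces1c, Ces1h and Ces5a had at most 4 counts.

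The make-up of the family's transcripts differed between libraries. Ces1g gave 66.01% of the 9 genes' counts in M8 (95% Clopper-Pearson interval 63.7 to 68.2), 65.2% in M32 (63.2 to 67.1) and 31.1% in M83 (29.2 to 32.9), against 77.9% in control (74.6 to 80.9). Ces2g gave 26.1% in M8 (24.1 to 28.3), 32.2% in M32 (30.3 to 34.1) and 30.2% in M83 (28.4 to 32.03), against 16.7% in control (13.99 to 19.7). Ces1f gave 6.22% in M8 (5.12 to 7.46), 0.167% in M32 (0.0456 to 0.427) and 37.7% in M83 (35.7 to 39.6), against 4.69% in control (3.23 to 6.56), which made it the leading carboxylesterase transcript of M83 by counts.

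**Figure D3:**
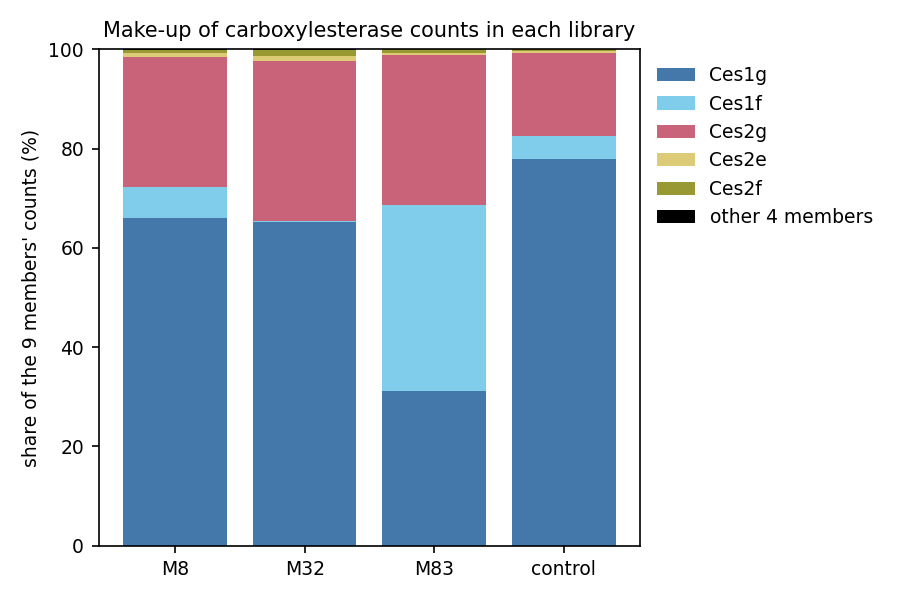
Share of the counts of all 9 carboxylesterase genes taken by each gene (y axis, percent, stacked bars) in M8, M32, M83 and control (x axis, 1 library each). Ces1g holds 77.9% in control and 31.1% in M83, where Ces1f holds 37.7%.

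Across the whole table, edgeR called 1 of 13576 genes in the mutant lines against control at an adjusted p under 0.05 (0.00737%, and 448 genes at an unadjusted p under 0.05), and none of the 5 tested carboxylesterase genes. DESeq2 called 50 of 11465 genes (0.436%), with Ces2g among them, and nothing is read from that call because Ces2g was picked on this contrast. In DESeq2 the adjusted p of Ces1g was 0.872, and Ces2e and Ces2f were given none. Ces1g, Ces2e, Ces2f and Ces2g lay above control in each line, as did 23.3% of the tested genes, while 21.3% lay below it in each line. That count is no support, since Ces2e and Ces2f passed the filter only through the mutant libraries and Ces2g was chosen. For single lines a rule of size was used, at least 4-fold with a prior count of 2, at least 50 counts in the higher library and an interval that leaves out 2-fold. By it no carboxylesterase gene was set off in M8 (0.795% of genes with enough counts were higher, 0.564% lower). Ces2g was higher in M32 (1.13% of genes higher, 0.277% lower), and Ces2g and Ces1f were higher in M83 (1.08% higher, 0.275% lower). Of the 9 genes, only 3 in M8, 2 in M32 and 3 in M83 had enough counts for the rule. Both genes were picked for their rise, so meeting the rule, here or between lines, is a description and no support. With a prior count of 2 the log2 ratio of Ces2g was 1.81 in M8, short of the limit of 2. Ces1f in M32, at -2.59, failed the rule because its higher library had 32 counts. Between lines, Ces1f was the only carboxylesterase gene to meet the rule, lower in M32 than in M8 (0.868% of genes higher, 0.539% lower), higher in M83 than in M8 (1.05% higher, 0.863% lower) and higher in M83 than in M32 (0.689% higher, 0.889% lower).

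The genes around both clusters had median log2 ratios near 0 in every line. The Ces1 cluster, 516 kb with 9 carboxylesterase genes, has before it, at 644 kb, the homeobox gene Irx5 as the nearest gene of at least 50 counts on that side. In M8, M32 and M83 Irx5 had log2 ratios of 0.17, -0.03 and -0.24. The Ces2 cluster, 416 kb with 10 such genes, lies between Ciao2b, 92.0 kb before it, with -0.42, -0.37 and -0.46, and Cbfb, the gene of a core binding factor subunit, 20.6 kb after it, with 0.05, 0.16 and -0.09. Within 1000 kb of the Ces1 cluster the 13 genes with enough counts had medians of 0.17 (M8), -0.17 (M32) and -0.24 (M83), and none met the size rule. Around the Ces2 cluster 45 genes had medians of -0.02, -0.05 and -0.11, and 1 met the rule, Dpep2_1 as the table spells it, with 31, 62 and 111 counts in M8, M32 and M83 against 15 in control. The 729 tested genes of chromosome 8 had medians of 0.01, -0.05 and -0.06.

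**Figure D4:**
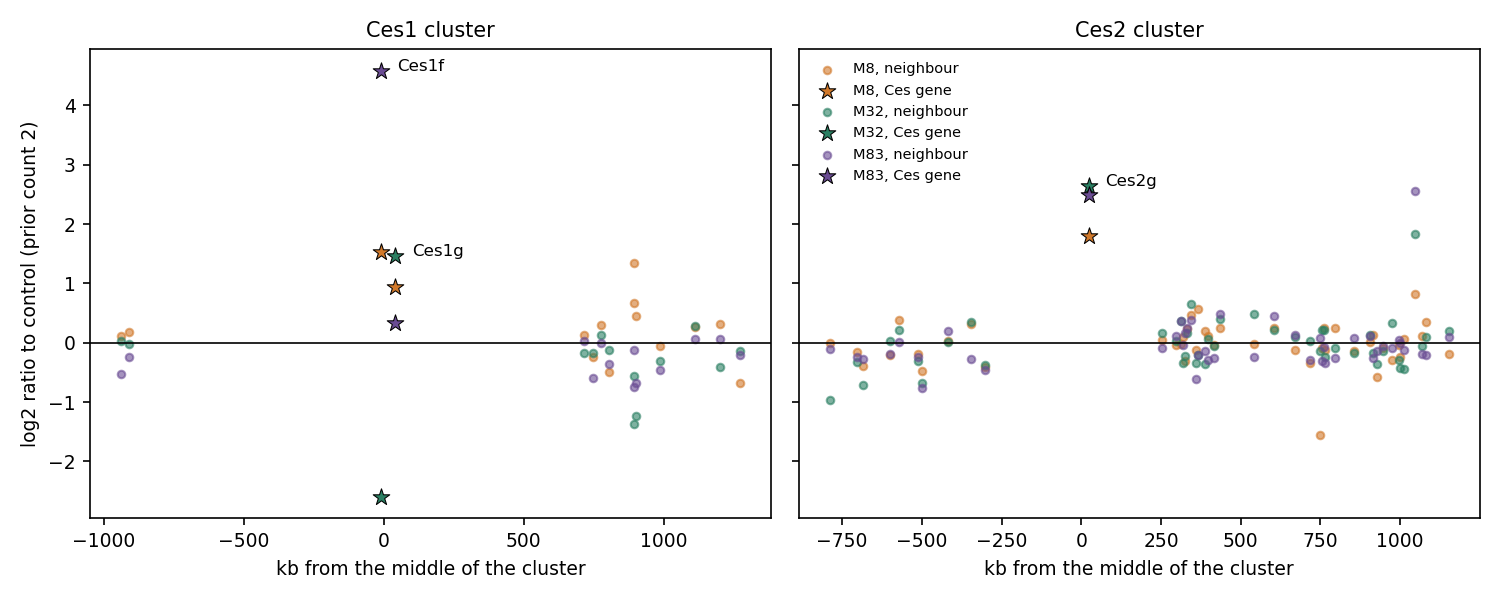
Log2 ratio of each mutant line over control (y axis, prior count 2) for genes with at least 50 counts within 1000 kb of the Ces1 and the Ces2 cluster, by distance of the gene from the middle of the cluster (x axis, kb). Stars are carboxylesterase genes and circles their neighbours. The medians of the circles lie between -0.24 and 0.17.

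Genes whose profile over the 4 libraries was most like that of Ces2g or Ces1f were looked for by the Euclidean distance of log2 CPM, each gene centred on its own mean, among 9684 genes with a mean of at least 5 CPM. This is a description over 4 libraries. Crabp2, which encodes a retinoic acid-binding protein, was nearest to Ces2g (distance 0.214), with 175, 250 and 254 counts in M8, M32 and M83 against 36 in control. Then came Car6, a secreted carbonic anhydrase gene (0.469), Thbs1, the thrombospondin 1 gene (0.479), Sema3b, a semaphorin gene (0.487), and Clu, the clusterin gene (0.502). Ces2f, below the limit of 5 CPM, lay at 0.577, with only these 5 of the ranked genes nearer, and Ces2e lay at 1.24 and Ces1g at 1.54. Other genes below the limit were not ranked, and the distance of Ces2f rests on 29 counts or fewer in each library. No gene came close to Ces1f. The nearest were Hbb-bh1, an embryonic globin gene (2.51), Tnc, the tenascin C gene (2.64), Aldh3a1, an aldehyde dehydrogenase gene (2.72), Tnfrsf9, which encodes the receptor 4-1BB (2.83), and Dynap (2.84). Hbb-bh1 had 108, 39 and 695 counts in M8, M32 and M83 against 35 in control, and Tnc 602, 49 and 706 against 138.

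**Figure D5:**
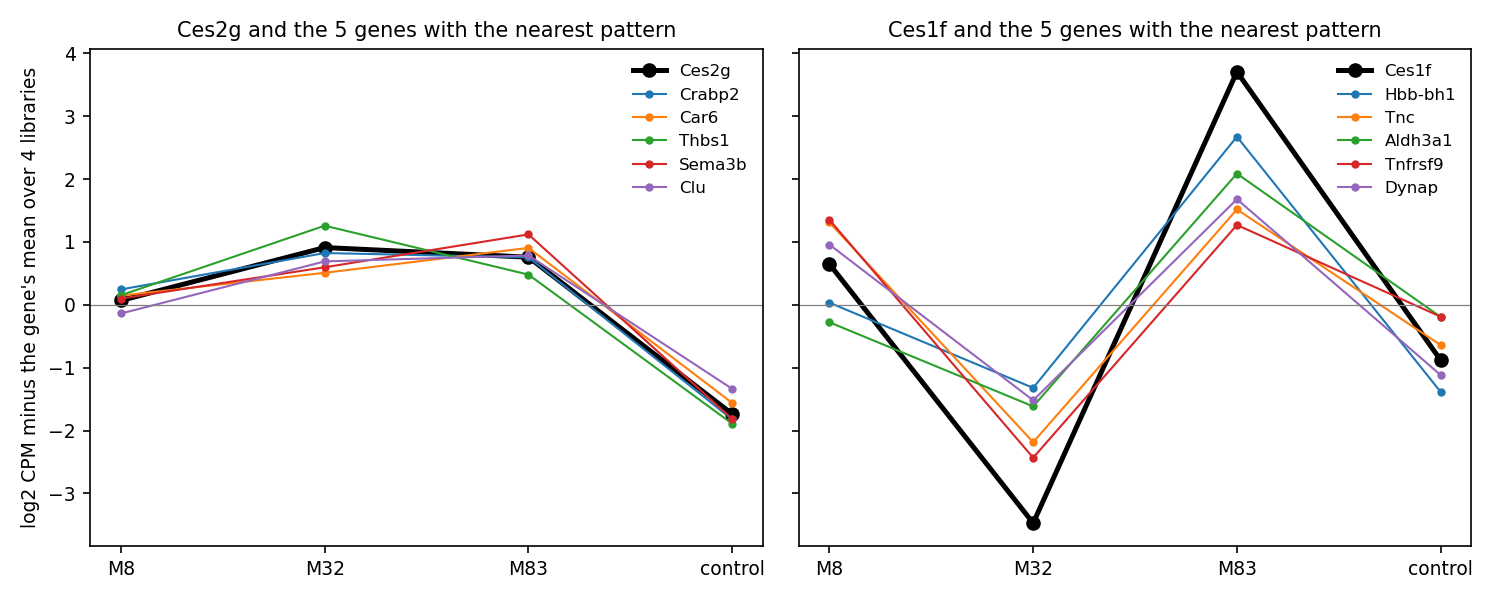
Log2 CPM minus the mean of the gene over the 4 libraries (y axis) in M8, M32, M83 and control (x axis; lines join the values of 1 gene and imply no order) for Ces2g (left) and Ces1f (right) with the 5 nearest genes. The genes beside Ces2g lie within a distance of 0.502, while those beside Ces1f are 2.51 or more away and have a smaller span.

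Genes that act on the same or related substrates were then counted, from lists of known genes. Of 17 genes listed as neutral lipid hydrolases, a broad list, 11 were tested, and 6 lay above control in each line (23.3% of all tested genes) and none below it (21.3%). The median log2 difference was 0.28 against 0.02 over all tested genes. In this list and the next ones, some genes with few counts passed the filter on low counts only through the mutant libraries. Examples are Faah in this list and Mogat2 in the list of ester synthesis, with 8 and 4 counts in control. For such genes a place above control is no support, and their differences also enter the list medians. Abhd12, a lysophospholipase gene and the most abundant of them, had 1267, 1396 and 1437 counts in M8, M32 and M83 against 1055 in control. Nceh1, the neutral cholesterol ester hydrolase gene, had 1200, 842 and 944 counts against 679. Mgll, which encodes monoacylglycerol lipase, was the only one to meet the size rule, with 57 counts in M83, 16 in M8 and 15 in M32 against 10 in control. Aadac, the liver arylacetamide deacetylase gene, had no count.

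Of 21 genes of ester synthesis and lipid droplets 14 were tested, with a median log2 difference of 0.37. Of these, 8 lay above control in each line (23.3% of all tested genes) and 3 below (21.3%). Soat1, which makes cholesteryl esters, had 212, 145.9 and 175 CPM in M8, M32 and M83 against 145.7 CPM in control. Plin2, the main lipid droplet coat gene outside fat, had 155, 122 and 160 CPM against 161 CPM, below control in each line. Mogat2, a monoacylglycerol acyltransferase gene of the gut, had 59 counts in M32, 14 in M8 and 0 in M83 against 4 in control and met the size rule in M32. Plin4 met it in M83, with 113 counts, 40 in M8 and 38 in M32 against 22 in control.

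Of 30 genes that oxidise or conjugate foreign compounds 17 were tested, with a median log2 difference of 0.53. Of these, 7 lay above control in each line (23.3% of all tested genes) and 2 below (21.3%). The tested genes include Ugt2b34 and Fmo5, with 0 and 5 counts in control. Both passed the filter on low counts only through the mutant libraries and enter the median, which is therefore a description. Ephx1, the microsomal epoxide hydrolase gene, had 3727, 4440 and 3839 counts in M8, M32 and M83 against 1888 in control (log2 difference 0.94, SE 0.252). Gstp1, a glutathione transferase gene, had 15839, 8798 and 9478 counts against 10533. Ugt1a7c met the size rule in M8 and M83, with 169, 93 and 197 counts in M8, M32 and M83 against 30 in control, but it shares its last exons with the other Ugt1a genes and its count is uncertain. Gsta1, which has a near-identical neighbour and is uncertain for that reason, was higher in M83 by the rule (64 counts, 29 in M8 and 19 in M32, against 12 in control), and Fmo1, a flavin monooxygenase gene, was lower in M83 (14 counts, 38 in M8 and 28 in M32, against 81 in control). Cyp2b10 and Cyp3a11, liver drug oxidases, had no count.

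Of 9 other esterase genes 5 were tested and none lay on 1 side of control in every line (median log2 difference -0.05). Esd, the esterase D gene, had 19811, 14118 and 19643 counts in M8, M32 and M83 against 16918 in control, and the butyrylcholinesterase gene Bche had none. The KDEL receptor genes Kdelr1, Kdelr2 and Kdelr3, which return proteins to the endoplasmic reticulum, and Gusb, the β-glucuronidase gene, had a median log2 difference of 0.07. Of these 4 genes, 2 lay above control in each line (23.3% of all tested genes). Of 18 transcription factor genes of drug and lipid metabolism 12 were tested (median log2 difference -0.11). Of these, 1 lay above control in each line (23.3% of all tested genes) and 3 below (21.3%). Nr3c1, the glucocorticoid receptor gene and the most abundant, had 129, 157 and 124 CPM in M8, M32 and M83 against 140 CPM in control. Nfe2l2, the NRF2 gene, had 90.0, 99.2 and 106 CPM against 114 CPM, below control in each line. The genes of the xenobiotic receptors PXR and CAR, Nr1i2 and Nr1i3, had at most 6 counts and Ppara none, and Cebpa, with 455, 346 and 412 counts in M8, M32 and M83 against 164 in control, was the factor gene above control in each line. These 4 genes were named after their values were seen. In edgeR's quasi-likelihood test no gene of these lists passed.

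Markers of other cell types were read beside these values. The 8 fibroblast genes summed to 7421, 8502 and 7821 CPM in M8, M32 and M83 against 6750 CPM in control. Most of that sum was Vim, the vimentin gene, and Col1a2, a collagen I chain gene, whose log2 ratios to control lay between -0.16 and 0.16. Of the 7 tested, 5 lay above control in each line (23.3% of all tested genes), namely Col1a1, Col3a1, Dcn, Pdgfra and Pdgfrb. The median log2 difference was 1.33. Dcn, with 13, 48 and 29 counts in M8, M32 and M83 against 2 in control, passed the filter on low counts only through the mutant libraries. Its place above control is therefore no support. Col1a1, the other collagen I chain gene, had 888, 1232 and 1126 CPM in M8, M32 and M83 against 430.0 CPM in control. The size rule was met in M32 by Col3a1, the collagen III gene, with 272, 479 and 70.8 CPM in M8, M32 and M83 against 68.5 CPM in control, and by Pdgfrb, a receptor gene for platelet-derived growth factor, with 43.9, 86.3 and 19.9 CPM against 16.6 CPM. Both were highest in M32 and near control in M83. The 7 macrophage genes summed to 54.5, 52.2 and 44.5 CPM in the lines against 36.2 CPM in control, most of it Cd14, while Adgre1 and Csf1r had no count. Of the 4 tested, 2 lay above control in each line (23.3% of all tested genes) and 1 below (21.3%). The one below was Cd68, with 18, 21 and 36 counts in M8, M32 and M83 against 45 in control. Lyz2, above control with 14, 19 and 4 counts against 2, passed the filter only through the mutant libraries, so its place is no support. Mrc1, the macrophage mannose receptor gene, met the size rule in M83, with 68, 26 and 170 counts in M8, M32 and M83 against 26 in control. The part of these marker levels in the carboxylesterase values was not tested.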

How the data were processed

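The authors deposited unnormalised counts (whole numbers, 1 column per library) in a table of 41457 rows, of which 20208 had no count. The build named in the submitters' processing notes is GRCm38. Libraries were made with a poly(A) module and an NEBNext Ultra II kit, per the labels' protocols. No aligner, counter, annotation or strand setting is given in the sources used here. The labels speak of triplicates, so a column may sum repeats.

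Positions and exon lengths came from GENCODE vM21 (same build, 41434 IDs matched), start regions from RefSeq (GRCm38.p6). M8, M32 and M83 were set against control with edgeR 4.0.16 (R 4.3.3; TMM, filterByExpr, quasi-likelihood F-test, Benjamini-Hochberg). The fit has 2 residual degrees of freedom. Its p-values rest on the spread between 3 different lines, which edgeR draws for each gene towards a trend over the 13576 tested genes. Control, a single library, is taken to vary as the lines do. Each SE was taken as the size of the log2 difference divided by the square root of F. DESeq2 1.42.0 was the alternative tool. The edgeR fit was tested on simulated data. Single lines were compared without a test, with exact 95% intervals (scipy 1.17.1). The genes, lists and naming rule (all 9 genes, up to 5 per list by level and any meeting the size rule) were chosen with earlier results of these data known. The 4 factor genes marked as such in the report, genes named for having few or no counts and Dpep2_1 were chosen after their values were seen.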

Additional observations from a re-analysis of the deposited data

How the results depend on the processing

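In edgeR, RLE size factors and library size alone left the count of called genes at 1 and of called carboxylesterase genes at 0. Without the filter on low counts 2 genes were called, none of them a carboxylesterase gene. DESeq2 called 50 genes and 1 carboxylesterase gene, Ces2g. The cause of the difference between the tools was not tested. Leaving out each line in turn gave 1 to 1 called genes and 0 to 0 called carboxylesterase genes. The log2 difference then ranged over 2.18 to 2.59 for Ces2g, 0.64 to 1.21 for Ces1g, 2.33 to 3.19 for Ces2e, 2.03 to 2.83 for Ces2f and 0.61 to 3.80 for Ces1f, lowest without M83 for Ces1f and without M32 for the other 4. With a minimum of 20 counts in place of 50, 4 carboxylesterase genes met the size rule in M32, Ces2g, Ces2e and Ces2f higher and Ces1f lower. This too is a description and no support. Both other scalings, a prior count of 0.5 and, in M8 and M83, the lower minimum left the size rule counts as they were. No paired analysis was possible because the control is a single library and the labels give no replicate numbers.

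With 1 library per line and 1 control, no difference of a single line has a replicate check. Ces2e and Ces2f, at 29 counts or fewer, have wide intervals, and only 1 of the 3 ratios between lines has an interval that leaves out 1 for each, and Ces1d, Ces1e, Ces2a and Ces2c were not detectable beyond 3 counts at this depth.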
